A study of Homo sapiens with 6 samples.

Results

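The genes described are those of the proteasome: every gene in the count table whose symbol is PSMA, PSMB, PSMC, PSMD, PSME, PSMF or PSMG followed by a number. There were 46 such genes among 16362, of which 17 belong to the core particle (PSMA, PSMB), 20 to the regulatory particle or its assembly (PSMC, PSMD) and 9 to the PSME, PSMF and PSMG families. The cells were human breast cancer cells labelled MDA-MB-231, a line derived from a triple-negative breast cancer, and no genetic change is given for any group. The control group had no agent (3 libraries) and the other group had CTI-2 for 24 h (3 libraries). Only the code name CTI-2 identifies the compound. The sources used here give neither its dose nor any vehicle for the controls. Each library was made from total RNA with an Oxford Nanopore cDNA-PCR kit, and each value is a read count per gene or its CPM, the count divided by the library total and scaled by the same constant in every library. Whether each library had its own culture is not stated, and p-values here may therefore reflect only technical spread.

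The proteasome is the protease complex that degrades proteins tagged with ubiquitin. Its core particle is a barrel of alpha rings (PSMA) around beta rings (PSMB), and the proteolytic sites lie on the beta subunits PSMB5, PSMB6 and PSMB7. The regulatory particle caps the barrel: its base holds a ring of ATPases (PSMC) that unfold the substrate, and its lid (PSMD) holds the subunit PSMD14, which removes ubiquitin. Dedicated assembly factors build each particle. Cells with impaired proteasomes are known to raise the transcription of subunit genes together, through the transcription factor NFE2L1.

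Library totals ran from 2208261 to 3929532 counts, with 13908 to 14716 genes counted per library, and 3 counts corresponded to 0.763 to 1.36 CPM. All 46 proteasome genes passed the low-count filter, so none is left out for low counts. Markers were mixed for the labelled line. Of the markers chosen as present in the line, ANXA1, CD44 and S100A4 were present in all libraries, and AXL had only 2.98 to 7.41 CPM. Of those chosen as low or absent, CDH1 had a count in 1 library only and ESR1 had at most 0.509 CPM. EPCAM (6.98 to 10.6 CPM) and ERBB2 (4.98 to 11.1 CPM) were counted in every library. VIM, known to be abundant in this line, stood at only 14.5 to 18.9 CPM, and CDKN2A, usually reported as deleted in it, stood at 254 to 612 CPM. MTAP, chosen as deleted along with CDKN2A, had 10.8 to 19.0 CPM. The identity of the line was not tested, and the cells are named below only as labelled. PGR and the leukocyte markers PTPRC and CD3E were not among the genes of the count table. Of the fibroblast markers, DCN had at most 0.634 CPM, but COL1A1 had 52.2 to 87.4 CPM. The endothelial marker PECAM1 had 1.93 to 4.58 CPM. The median deviation of all tested genes from their mean log2(CPM + 1) was 0.07, -0.05 and 0.08 in the controls, in order, and -0.02 to -0.01 with CTI-2, so control 2 differed in sign from the other controls. Its effect on the counts of calls is given with them.

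Proteasome transcripts differed little between the groups. Of the 46 genes 3 rose, PSMA6, PSMC1 and PSMD10, 1 fell, PSME4, and 42 did not pass the test (edgeR quasi-likelihood test, adjusted p under 0.05 over all 9848 genes tested). Over all genes tested 3.39% rose and 4.64% fell, and the proteasome genes' shares were 6.52% and 2.17%, so the calls were about as frequent as among all genes. No change exceeded 1.5-fold: the log2 fold changes, CTI-2 minus control, ran from -0.58 to 0.46. On simulated data the test recovered 39.7% of 1.5-fold changes, so genes that did not pass may still differ by this much. Their median was 0.09, against -0.01 over all genes tested. Small positive values were common, in 35 of the 46 genes and in 48.7% of all genes tested, although with library totals in place of TMM scaling 29 of the 46 were positive. Uncalled values near 0 have no firm direction: 16 of the 46 changed sign in at least 1 alternative, none of them over 0.09 in size. The CPM of the groups did not overlap, with CTI-2 higher, in 18 of the 46 (39.1%, against 13.2% of all genes tested), and with CTI-2 lower in 7 (15.2%, against 15.6%). The number of calls rested on control 2: without it 14 of the 46 proteasome genes were called higher and 1 lower. In that fit 9.57% of all genes were called higher and 6.53% lower, so calls higher were more frequent among proteasome genes. Omitting control 1, or the CTI-2 library numbered 2 or 3, left no call among them, and without control 3 or CTI-2 library 1 PSMA6 and PSME4 were called.

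**Figure D1:**
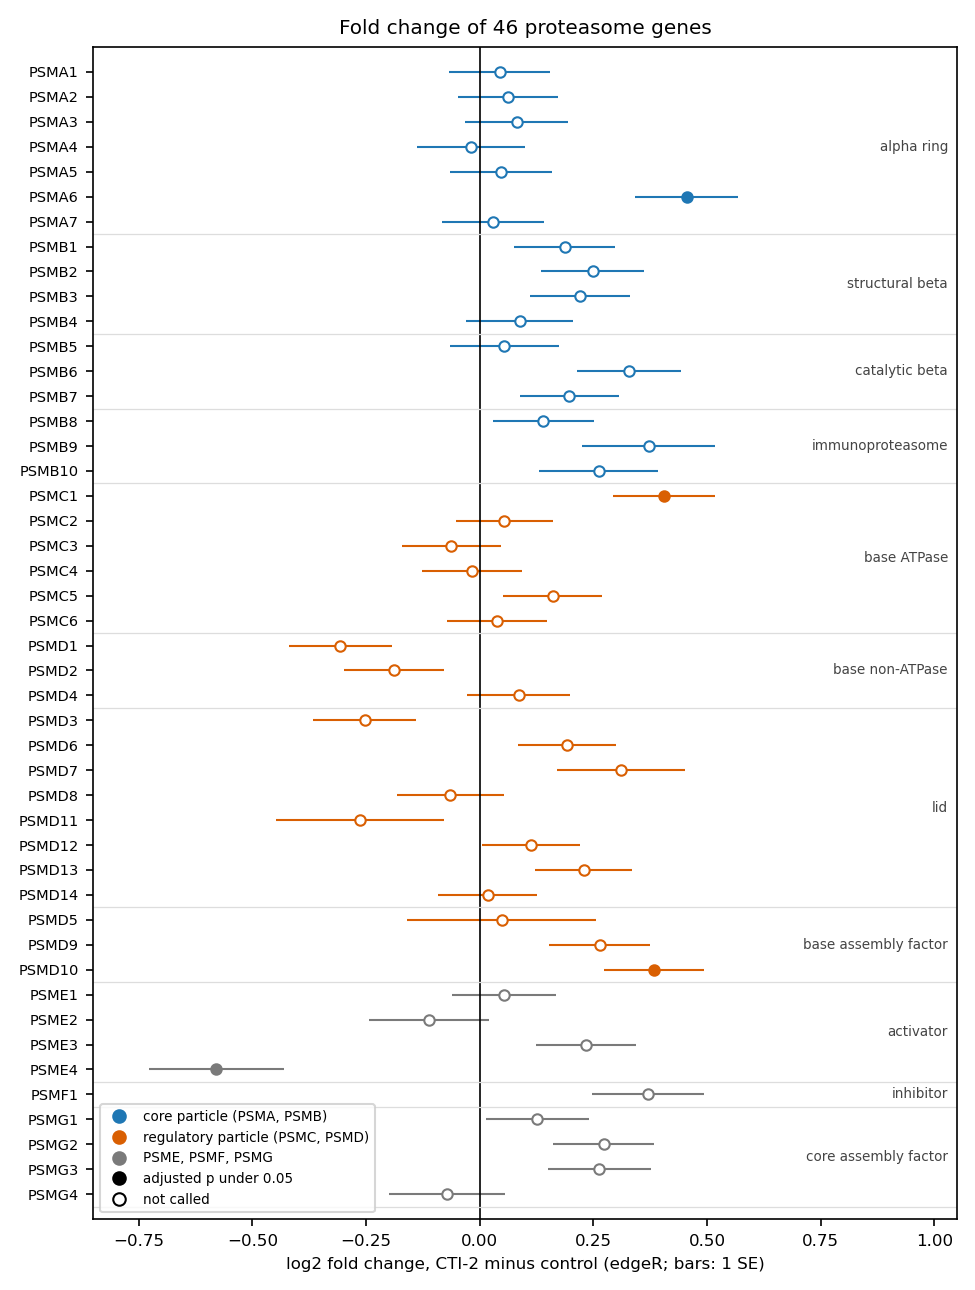
Log2 fold change of each of the 46 proteasome genes (x axis, CTI-2 minus control, edgeR; bars show 1 SE), grouped by role on the y axis. Filled points passed an adjusted p of 0.05: PSMA6, PSMC1 and PSMD10 lie to the right of 0 and PSME4 to the left, and the 42 open points did not pass.

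PSMA6 encodes a subunit of the alpha ring. The controls, in order, had 312, 358 and 293 CPM, and the treated libraries 421, 433 and 430 CPM. The CTI-2 libraries lay close together and all lay above the highest control, control 2. PSMA6 rose 1.37-fold, from 321 ± 33.6 to 428 ± 6.35 CPM (mean of 3 libraries ± SD). The log2 fold change was 0.46, its SE 0.11 and the edgeR adjusted p 0.0099. Omitting control 1, or the CTI-2 library numbered 2 or 3, raised its adjusted p to between 0.0515 and 0.0669. In GENCODE 29 on GRCh38 PSMA6 spans chromosome 14 from 35278633 to 35317493, plus strand. That span overlaps AL121594.1 on the same strand (log2 fold change -0.09, adjusted p = 0.82), and 4 PSMA6 pseudogenes are annotated, so its count is uncertain to that extent.

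PSMC1 encodes an ATPase of the base ring. The controls had 270, 296 and 254 CPM and the CTI-2 libraries 341, 341 and 373 CPM, again with no overlap and with control 2 the highest control. PSMC1 rose 1.33-fold (means of 3 libraries ± SD, 273 ± 21.3 to 352 ± 18.1 CPM), a log2 fold change of 0.41 with an SE of 0.11 and an edgeR adjusted p of 0.0194. The call was lost when any library except control 2 was left out (adjusted p 0.0612 to 0.14). PSMC1 spans chromosome 14 from 90256495 to 90275429, plus strand. It overlaps NRDE2 on the opposite strand (log2 fold change -0.07) and has 13 annotated pseudogenes, among which the counting could split reads.

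PSMD10, also called gankyrin, is an assembly factor of the base and not a subunit of the finished particle. It had 216, 221 and 194 CPM in controls and 270, 258 and 272 CPM after CTI-2, with no overlap. PSMD10 rose 1.30-fold (means of 3 libraries ± SD, 211 ± 14.6 to 267 ± 7.69 CPM), a log2 fold change of 0.38 with an SE of 0.11 and an edgeR adjusted p of 0.024, and this call too was lost without any library except control 2 (adjusted p 0.0731 to 0.125). The gene lies on chromosome X at 108084207 to 108091618 on the minus strand and overlaps no other counted gene, with 3 annotated pseudogenes.

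PSME4 encodes a large activator that binds the ends of the core particle in place of the regulatory particle. Its CPM were 60.1, 48.4 and 60.0 in controls and 43.8, 34.4 and 28.5 after CTI-2. All CTI-2 libraries were below all controls, and control 2 was the control nearest to them. PSME4 was 1.49-fold lower (means of 3 libraries ± SD, 56.1 ± 6.75 to 35.6 ± 7.68 CPM), a log2 fold change of -0.58 with an SE of 0.15 and an edgeR adjusted p of 0.0118. Omission of control 1, or of the CTI-2 library numbered 2 or 3, gave adjusted p from 0.0534 to 0.0965. PSME4 lies on chromosome 2 at 53864067 to 53970840 on the minus strand, where it overlaps ACYP2 on the opposite strand (log2 fold change 0.08).

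**Figure D2:**
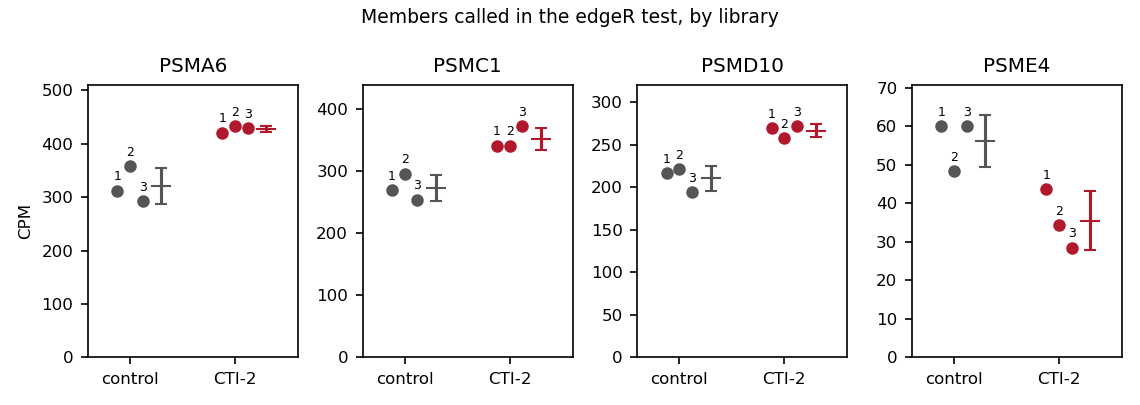
CPM of the 4 genes that passed the edgeR test, in each control (grey) and CTI-2 (red) library, numbered by replicate; horizontal marks and bars show the mean and SD of 3 libraries and the y axes start at 0. In PSMA6, PSMC1 and PSMD10 every CTI-2 library lies above every control, and in PSME4 below.

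The promoters of these 4 genes are shown because they are the members that passed the test. Each sequence is the 250 bases before the gene's most upstream RefSeq start on GRCh38.p14, read 5′ to 3′ on the gene's strand. Capitals mark matches on either strand to the GC box GGGCGG, the CCAAT box, the TATA box TATAAA and TGACNNNGC, which is the core of the antioxidant response element that NFE2L1 and NFE2L2 bind. Adjacent matches may overlap.
PSMA6, chr14:35292067-35292316, plus strand: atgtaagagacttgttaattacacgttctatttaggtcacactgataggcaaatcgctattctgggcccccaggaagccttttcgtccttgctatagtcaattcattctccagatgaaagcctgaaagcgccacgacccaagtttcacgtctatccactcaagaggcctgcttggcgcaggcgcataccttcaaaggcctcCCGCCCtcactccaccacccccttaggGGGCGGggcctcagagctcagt
PSMC1, chr14:90256303-90256552, plus strand: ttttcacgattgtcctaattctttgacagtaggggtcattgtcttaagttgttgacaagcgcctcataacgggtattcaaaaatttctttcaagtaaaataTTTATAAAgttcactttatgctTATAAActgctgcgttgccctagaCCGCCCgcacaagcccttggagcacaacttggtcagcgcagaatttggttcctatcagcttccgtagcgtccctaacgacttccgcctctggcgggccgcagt
PSMD10, chrX:108091543-108091792, minus strand: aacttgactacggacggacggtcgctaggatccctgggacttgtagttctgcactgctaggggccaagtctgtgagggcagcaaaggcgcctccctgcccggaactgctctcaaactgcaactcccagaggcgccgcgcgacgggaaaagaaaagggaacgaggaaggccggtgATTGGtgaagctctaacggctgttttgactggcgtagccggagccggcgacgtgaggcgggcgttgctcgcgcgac
PSME4, chr2:53970994-53971243, minus strand: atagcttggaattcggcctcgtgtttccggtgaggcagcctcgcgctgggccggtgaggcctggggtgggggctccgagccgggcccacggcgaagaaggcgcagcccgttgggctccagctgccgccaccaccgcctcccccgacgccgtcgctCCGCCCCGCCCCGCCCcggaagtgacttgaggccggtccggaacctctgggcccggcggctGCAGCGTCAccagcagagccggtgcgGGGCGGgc

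The matches differed among the 4 promoters. PSMA6, PSMC1 and PSME4 held GGGCGG, PSMD10 held CCAAT, PSMC1 held TATAAA, and PSME4 held TGACNNNGC, which is not in the windows of the 3 genes that rose. Of the 46 members 40 had a RefSeq promoter, and those of PSMA7, PSMB1, PSMB6, PSMB7, PSMD4 and PSMG3 were not used here. TGACNNNGC was in 11 of the 40 (27.5%) and in 11.1% of the windows of 27305 RefSeq genes. GGGCGG was in 26 of the 40 (65%, against 42.2%), CCAAT in 17 (42.5%, against 33%) and TATAAA in 4 (10%, against 11.2%). The median log2 fold change was 0.11 among members with TGACNNNGC and 0.06 among those without. For CCAAT these medians were 0.08 with and 0.05 without, and for TATAAA 0.11 and 0.07. GGGCGG went the other way, at 0.05 with and 0.11 without. None of these differences was tested.

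The alpha ring was otherwise flat. Of its 7 genes PSMA6 rose and 6 did not pass, with log2 fold changes from -0.02 to 0.08 for those 6. PSMA4 had the highest CPM of the ring: 1172, 1236 and 1082 in controls and 1207, 1136 and 992 after CTI-2, so the groups overlapped (log2 fold change -0.02, SE 0.12, adjusted p = 0.948). The summed CPM of the ring was 4193 ± 233 in controls and 4249 ± 113 with CTI-2 (SD of 3 libraries). PSMA6 thus stood apart from its neighbours in the same ring, whose subunits are present in equal number in the finished particle; the difference between PSMA6 and the other 6 was not tested.

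Beta ring genes leaned higher without a call. All 10 had positive log2 fold changes, from 0.05 to 0.37, although PSMB4 and PSMB5 turned negative without control 3 and PSMB5 also with the length trend removed, and none passed (smallest adjusted p = 0.0665). At an unadjusted p under 0.05 there were 3, where 2358 of all 9848 genes lay. DESeq2 and limma-voom also called none of the 10. In 6 of the 10 every CTI-2 library lay above every control (60%, against 13.2% of all genes tested). Among the catalytic subunits, PSMB6, which carries the caspase-like site, had 589, 607 and 512 CPM in controls and 664, 701 and 712 CPM after CTI-2. Its groups did not overlap, but its adjusted p was 0.0665 (log2 fold change 0.33, SE 0.11). It passed with library totals (adjusted p = 0.0412), with limma on log2 CPM (0.0372 and 0.0381) and without control 2 (0.0011). PSMB5, the chymotrypsin-like subunit and target of proteasome-inhibiting drugs, stood at 90.2 ± 7.67 and 91.2 ± 4.57 CPM (SD of 3 libraries; log2 fold change 0.05, adjusted p = 0.832). PSMB7, the trypsin-like subunit, stood at 0.20 on the log2 scale (adjusted p = 0.272).

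The structural beta subunits had values between these. PSMB4, the core gene of highest CPM, had 1765, 1667 and 1502 CPM in controls and 1831, 1603 and 1635 CPM after CTI-2, with overlapping groups (log2 fold change 0.09, adjusted p = 0.702). PSMB1, PSMB2 and PSMB3 had log2 fold changes of 0.19, 0.25 and 0.22, and the groups did not overlap in any of them. The immunoproteasome genes PSMB8, PSMB9 and PSMB10, whose products replace the catalytic subunits after interferon, did not pass either. PSMB8 had 151, 144 and 130 CPM in controls and 153, 146 and 155 CPM after CTI-2, which overlap (log2 fold change 0.14). PSMB9 had 33.9, 41.7 and 36.6 CPM in controls and 45.98, 45.2 and 51.6 CPM after CTI-2, with no overlap (log2 fold change 0.37, SE 0.15, adjusted p = 0.107). PSMB8 and PSMB9 overlap each other on opposite strands, and no source used here says if reads were counted by strand, so their counts are uncertain.

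**Figure D3:**
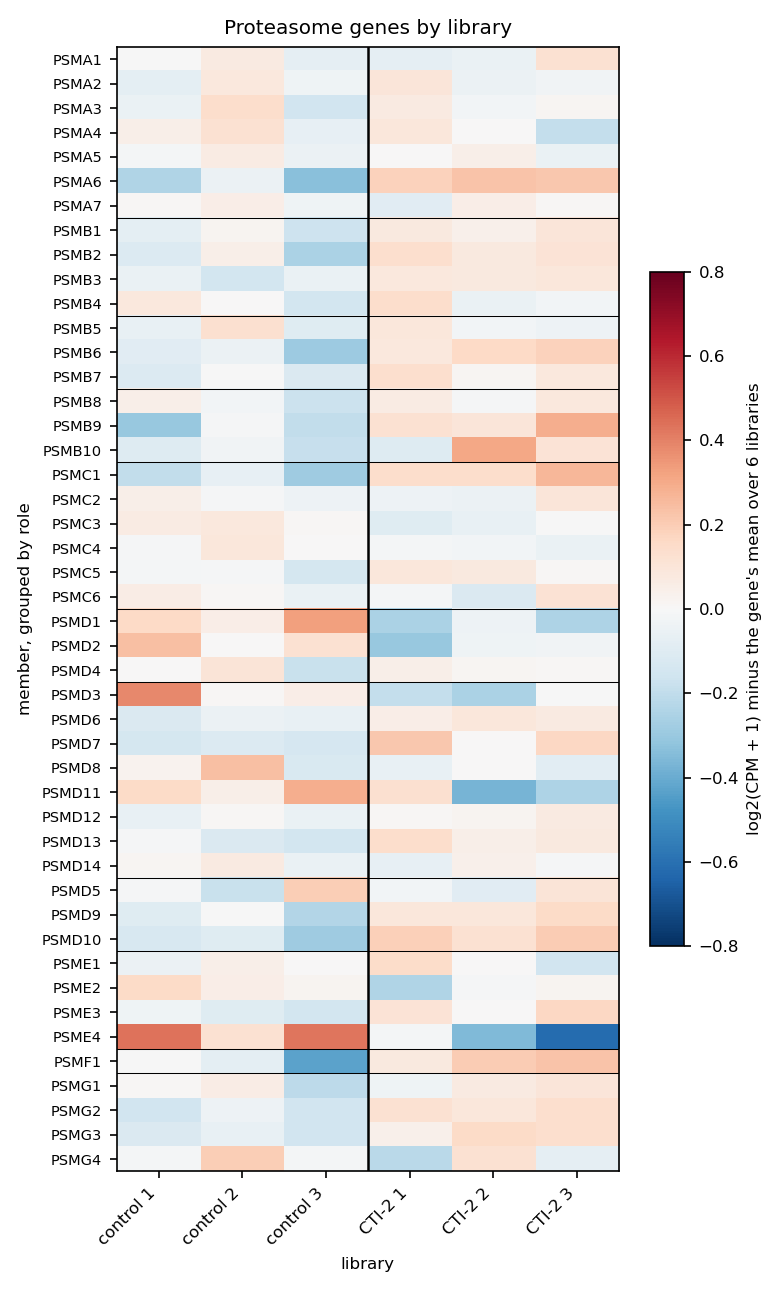
Each cell shows the log2(CPM + 1) of a proteasome gene (rows, grouped by role) in a library (columns) minus that gene's mean over the 6 libraries; red is higher and blue lower. Control 3 held the lowest value of 22 of the 46 genes and CTI-2 library 3 the highest of 16. In 7 rows, PSMC3, PSMC4, PSMD1, PSMD2, PSMD3, PSME2 and PSME4, every CTI-2 library lies below every control.

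In the regulatory particle, values went both ways. Besides PSMC1 none of the 6 ATPase genes passed. PSMC3, the ATPase gene of highest CPM, had 499, 506 and 479 CPM in controls and 444, 457 and 475 CPM after CTI-2, just without overlap (log2 fold change -0.06, adjusted p = 0.776). PSMC2, PSMC4, PSMC5 and PSMC6 had log2 fold changes of 0.05, -0.02, 0.16 and 0.04. Of the other base subunits, PSMD4, a ubiquitin receptor and the PSMD gene of highest CPM, had 449, 480 and 396 CPM in controls and 463, 452 and 450 CPM after CTI-2, with overlap (log2 fold change 0.09, adjusted p = 0.693). PSMD1 and PSMD2, the large scaffold subunits of the base, had the lower values, at -0.31 and -0.19. PSMD1 had 131, 122 and 147 CPM in controls and 98.3, 114 and 98.7 CPM after CTI-2. Its groups did not overlap, and its adjusted p was 0.0856, although it passed with library totals (0.0437) and with limma on log2 CPM (0.0416 and 0.0425). PSMD1 was chosen for its values by library after they were seen, and it overlaps HTR2B on the opposite strand.

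None of the 8 lid genes passed. Of these 5 had positive and 3 negative log2 fold changes, from -0.26 in PSMD11 to 0.31 in PSMD7, with a median of 0.07. PSMD3 stood at -0.25 (adjusted p = 0.163), PSMD6 at 0.19, PSMD8 at -0.06, PSMD12 at 0.11, PSMD13 at 0.23 and the deubiquitinase gene PSMD14 at 0.02. Their summed CPM was 1186 ± 47.1 in controls and 1188 ± 15.2 with CTI-2 (SD of 3 libraries). The other assembly factors of the base, PSMD9 and PSMD5, had log2 fold changes of 0.26 (adjusted p = 0.134) and 0.05. PSMD5 had the fewest counts of the 46 genes, at 36 to 52 per library.

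Core and regulatory genes were compared directly, since the particles are built separately and joined. The core genes had a median log2 fold change of 0.14 (16 of 17 positive) and the regulatory genes of 0.05 (13 of 20 positive), against -0.01 over all genes tested. With PSMD5, PSMD9 and PSMD10, which are not subunits of the finished particle, left out, the regulatory median was 0.04, and without the immunoproteasome genes the core median was 0.08. The summed CPM of core genes was 7724 ± 450 in controls and 8100 ± 169 after CTI-2, and that of regulatory genes 4243 ± 164 and 4342 ± 79.4 (SD of 3 libraries). The log2 ratio of the sums was 0.85, 0.91 and 0.84 in the controls and 0.95, 0.91 and 0.84 with CTI-2, in replicate order. The groups overlapped, and the difference of means, 0.04, was smaller than the SD of either group (0.04 in controls and 0.05 after CTI-2, or 0.0369 and 0.0539 against 0.0364). No p is given for scores over these genes.

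Weighting each gene equally gave a larger difference. The mean log2(CPM + 1) of core minus regulatory genes was 0.75, 0.86 and 0.74 in controls and 0.90, 0.91 and 0.87 after CTI-2, a difference of 0.11. Here the CTI-2 libraries lay above all controls, but CTI-2 library 3 (0.867) lay only just above control 2 (0.859). The summed ratio is dominated by PSMB4, PSMA4 and PSMA7, and leaving these 3 out gave 0.11 as well. Once the transcript length trend was removed, the difference in summed ratio became -0.02, and the medians of core and regulatory genes were 0.10 and 0.07. The difference in summed ratio thus turned sign under that choice, while the core median lay above the regulatory median in every alternative fit run, by the least with the length trend removed.

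**Figure D4:**
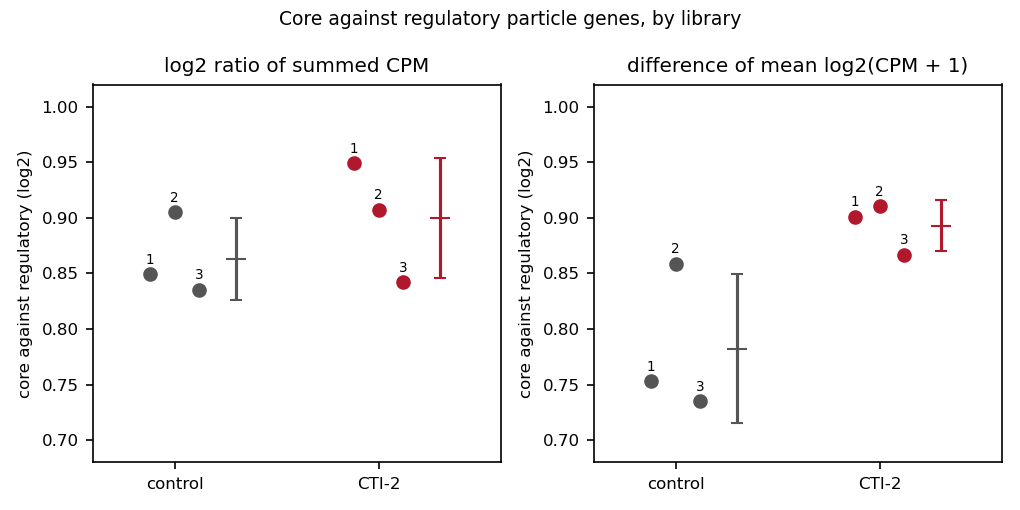
Core against regulatory genes in each control (grey) and CTI-2 (red) library, numbered by replicate, on the log2 scale, as the ratio of summed CPM (left) and as the difference of mean log2(CPM + 1) (right); marks and bars show mean and SD of 3 libraries, and the y axis does not start at 0. The groups overlap on the left, and on the right control 2 reaches 0.86 against 0.87 to 0.91 in CTI-2 libraries.

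Transcript length moved with these values. Annotated transcripts of core genes had a median length of 1029 bases and those of regulatory genes of 1973 bases. Across the 46 genes the log2 fold change fell with log2 transcript length at r = -0.36 (Spearman rho -0.24), and without PSME4, the longest, at r = -0.22. Over all tested genes with a length r was -0.15. These are correlations across genes measured in the same 6 libraries, given as descriptions. Of the 31 members with transcripts under 2000 bases, a limit chosen after seeing the data, 26 had positive values, and of the 15 longer ones 9 did. Among all tested genes with a length, 1697 of 2805 shorter and 2914 of 6413 longer ones had positive values. The median log2 fold changes in the shorter and longer classes were 0.13 and 0.05 for members. They were 0.08 and -0.03 for all tested genes with a length. With the length trend removed r across the members was -0.09, PSMA6 and PSMC1 still passed, and PSMD10 (log2 fold change 0.33, adjusted p = 0.0708) and PSME4 (-0.45, adjusted p = 0.0556) did not. PSMC1 has 1 annotated transcript in the length set, of 4448 bases, and which transcripts the reads came from is not in the count table.

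**Figure D5:**
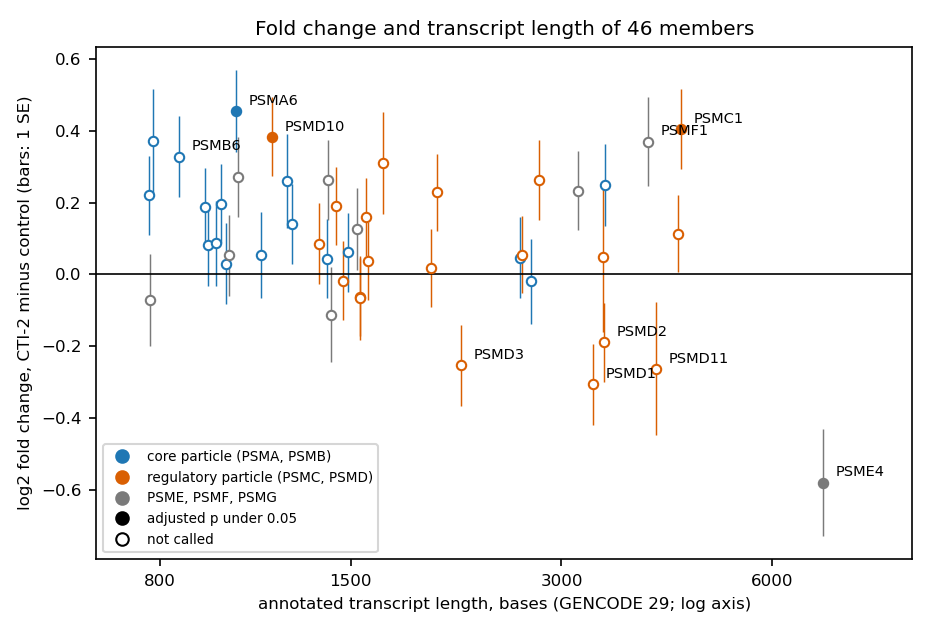
Log2 fold change (y axis, CTI-2 minus control; bars show 1 SE) against annotated transcript length (x axis, log scale) of the 46 genes, coloured by particle, with filled points for an adjusted p under 0.05. Values above 0.2 occur among transcripts both under and over 2000 bases. PSME4 is the longest and lowest, and PSMC1 and PSMF1 are long and above 0.3.

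The activators, the inhibitor and the core assembly factors complete the set. Of the PSME genes PSME4 fell and 3 did not pass. PSME3, a nuclear activator and the PSME gene of highest CPM, had 137, 132 and 127 CPM in controls and 152, 141 and 158 CPM after CTI-2, without overlap (log2 fold change 0.23, adjusted p = 0.185). PSME1 and PSME2, which form the interferon-induced activator, had log2 fold changes of 0.05 and -0.11. PSMF1, which encodes a proteasome inhibitor protein, had 100, 94.7 and 74.1 CPM in controls and 106, 116 and 117 CPM after CTI-2. The groups did not overlap and its adjusted p was 0.0556 (log2 fold change 0.37, SE 0.12), with control 3 well below the other controls. PSMG1 to PSMG4 encode the chaperones that assemble the alpha ring, and none passed. PSMG1, the highest in CPM, had 181, 188 and 156 CPM in controls and 176, 189 and 192 CPM after CTI-2, which overlap (log2 fold change 0.13). PSMG2 had 114, 123 and 113 CPM in controls and 137, 134 and 139 CPM after CTI-2, without overlap (log2 fold change 0.27, adjusted p = 0.123). PSMG3 had a log2 fold change of 0.26 and PSMG4 of -0.07.

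Levels differed far more between members than between groups. Per kilobase of annotated transcript, the highest control levels were those of PSMB4 (1706 CPM per kilobase), PSMA7 (1023) and PSMB6 (668), and the lowest those of PSMD5 (4.43), PSMD11 (5.98) and PSME4 (7.91). PSMB5 stood at 80.8 and PSMB7 at 181, so the 3 catalytic subunits, present in equal number in the particle, differed in transcript level. After CTI-2 the corresponding levels were 1753, 1010 and 813 CPM per kilobase for PSMB4, PSMA7 and PSMB6, and 4.39, 4.75 and 5.01 for PSMD5, PSMD11 and PSME4. Since long reads count cDNA molecules, dividing by length may lower long transcripts too far.

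Genes that work with the proteasome moved in both directions. Of a list of 34 partners 33 were tested, of which 3 rose, 4 fell and 26 did not pass (median log2 fold change 0.02). That is 21.2% called, against 8.03% of all genes tested. The list was drawn up with earlier results of these data known, so the higher share is a description only. DESeq2 called 3 of the partners. RAD23B, a shuttle that carries ubiquitin-tagged proteins to the proteasome, rose from 28.9 ± 2.59 to 42.5 ± 2.87 CPM (SD of 3 libraries; log2 fold change 0.59, edgeR adjusted p = 0.0134). PAAF1, which holds back the joining of base and core, rose from 42.6 ± 4.39 to 59.7 ± 5.27 CPM (0.51, edgeR adjusted p = 0.0177). PAAF1 and PSMD10 act on assembly of the same base. RAD23B was lost on omission of control 1, control 3 or CTI-2 library 1 (highest adjusted p 0.0717), and PAAF1 on omission of any of these or of CTI-2 library 3 (highest adjusted p 0.0806).

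The partners that fell were VCP, USP14, BAG6 and NGLY1. VCP, the ATPase that extracts tagged proteins from membranes and complexes, had 188, 142 and 151 CPM in controls and 51.1, 84.6 and 93.3 CPM after CTI-2. Its groups were far apart, and it was 2.04-fold lower (log2 fold change -1.03, SE 0.19, edgeR adjusted p = 0.00664), though it missed the threshold without control 2 or control 3 (adjusted p = 0.0652 and 0.0691). USP14, a deubiquitinase bound to the regulatory particle, had 38.5, 22.6 and 32.8 CPM in controls and 19.0, 13.8 and 18.1 CPM after CTI-2. It was 1.75-fold lower (log2 fold change -0.80, edgeR adjusted p = 0.00745) and missed the threshold on omission of control 1 (0.0712) or of CTI-2 library 2 (0.0608). It overlaps THOC1 on the opposite strand, which rose (0.43, edgeR adjusted p = 0.0283). BAG6 and NGLY1 fell by 0.44 and 0.41 on the log2 scale (edgeR adjusted p = 0.0254 and 0.046), and DESeq2 called neither of them, nor PAAF1 or RAD23B. With the length trend removed neither passed (BAG6 0.0827, NGLY1 0.0777), and NGLY1 also missed with no low-count filter (0.0693), with limma-voom (0.0513) and after thinning (0.0682). NGLY1, which encodes the glycanase needed to activate NFE2L1, was lost when any library except control 2 was left out (adjusted p 0.0957 to 0.192), and BAG6 on omission of control 1 or of the CTI-2 libraries numbered 1 and 3 in turn (highest adjusted p 0.155).

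NFE2L1 itself had 50.8, 49.1 and 64.7 CPM in controls and 53.3, 49.2 and 50.7 CPM after CTI-2, with overlap (log2 fold change -0.04, SE 0.13, adjusted p = 0.891). POMP, the maturation factor of the core particle, stood at 579 ± 29.3 and 653 ± 33.7 CPM (SD of 3 libraries; log2 fold change 0.22, adjusted p = 0.218). The ubiquitin receptor gene ADRM1 stood at 0.02 on the log2 scale (adjusted p = 0.949). UBB, a polyubiquitin gene, had only 3.17 to 6.81 CPM, and its count is uncertain because its repeats are near-identical to other ubiquitin sequence. The autophagy receptor gene SQSTM1, named after its values were seen, had 858 CPM in CTI-2 library 3 and 1671 to 1902 CPM in the other 5 libraries.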

How the data were processed

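Whole-number read counts per gene were deposited by the authors with a CPM table; the deposited CPM equalled each count over its library's total within 4e-11. Per the submitters' processing notes minimap2 was used, with version, build, annotation, counter, strand and filters not given in the sources used here. Counts were filtered (filterByExpr, 9848 genes kept), TMM-scaled and tested with edgeR 4.0.16 (glmQLFit, robust; glmQLFTest; R 4.3.3) for CTI-2 against control, with Benjamini-Hochberg adjustment over all genes; SE was derived from fold change and F. Positions and transcript lengths (median of basic transcripts) are from GENCODE 29 and stand beside counts whose build is not stated; the deposited gene length equalled the GENCODE span for 38 of the 46 genes. The fit was tested on simulated data with the same spread for all genes. It recovered 39.7% of genes changed 1.5-fold, 92.4% of those changed 2-fold and 100% of those changed 4-fold. Of its 157 calls 8 were false. The SD and SE given here include spread between libraries and are not limited to counting error. Floors in CPM are a fixed count over each library's total and do not include that spread. Reads carry no molecular identifiers.

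Members and lists were chosen with earlier results of these data known. Values in every library are given for called members and for the member of highest CPM and of largest fold change in each family. The immunoproteasome genes were taken apart from the other PSMB genes. The rest are given by fold change, singly or within a range. Partners named, with or without values in every library, are the called ones and NFE2L1, POMP, ADRM1, USP14 and UBB; 2 partners under this rule are counted but not reported by name here. PSMD1, SQSTM1 and the markers lie outside this rule. Alternatives were DESeq2 1.42.0, limma 3.58.1 (voom; log2 CPM with a pseudocount of 1 or 0.5), other size factors and filters, a replicate block, leaving out each library, an adjusted p of 0.01, thinning to 2208261 counts and removal of each library's lowess trend with transcript length (span 0.3). Added after seeing the data were the fit on genes with a transcript length only and the shortened gene sets.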

Additional observations from a re-analysis of the deposited data

How the results depend on the processing

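None of the 4 proteasome and 7 partner genes called changed sign in any alternative run; of the uncalled ones 16 proteasome genes and 7 partners did. Over all genes the number of calls was 791; it was 467 with DESeq2 and 306 at an adjusted p of 0.01, and 400 to 1610 when a library was left out, with 1610 without control 2. Proteasome genes called higher numbered 3, 1 at an adjusted p of 0.01, and 0 to 14 when a library was left out. Those called lower numbered 1, 2 with library totals and with limma on log2(CPM + 1) or log2(CPM + 0.5), 0 with the length trend removed and at an adjusted p of 0.01, and 0 to 1 when a library was left out. Partner genes called numbered 7, 3 with DESeq2 and at an adjusted p of 0.01, and 2 to 14 when a library was left out. The core median of 0.14 was 0.0542 to 0.2275 when a library was left out. The regulatory median of 0.05 was 0.00 (0.001 with library totals and 0.0007 with limma on log2(CPM + 1) or log2(CPM + 0.5)), and -0.0061 to 0.1037 when a library was left out. The core to regulatory difference of 0.04 became -0.0171 with the length trend removed, 0.11 with mean log2 values and 0.11 without PSMB4, PSMA4 and PSMA7, and 0.01 to 0.07 when a library was left out. Apart from the construction of each alternative, the cause of these moves was not tested. Control and CTI-2 libraries of the same number did not deviate together (correlations across genes of -0.049, 0.007 and -0.124), and no control correlated best with its own number. With the replicate number as a block 942 genes were called, and 4 proteasome genes were higher, PSMF1 being added, and 1 lower; the block also ended the call of NGLY1. The median SE over the proteasome genes was 0.11 on the log2 scale with 3 libraries per group.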
